A study of Mus musculus with 8 samples.

Results

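The genes described here are 10 liver-expressed genes of the alternative and terminal complement pathways: C3, Cfb, Cfd and Cfp, and Hc, C6, C8a, C8b, C8g and C9. Their probes were taken by gene name alone. Of the 41174 probes, 11 carried such a name (2 for C3 and 1 for each other gene). The genes themselves were listed with earlier results of these data known. They stand as 10 of 15342 genes measured. Liver RNA came from AIM+/+ (wild-type) and AIM-/- (knockout) mice of a C57Bl/6 background, and AIM is the secreted macrophage protein encoded by Cd5l. Both genotypes were studied on normal chow, written as 0 weeks, and after 6, 12 and 20 weeks on a high-fat diet. Each of the 8 groups is 1 one-colour Agilent array, so no group has a replicate. The age and sex of the mice and how many animals stand behind an array are not given in the sources used here, nor is which part of Cd5l was deleted.

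Complement is a set of plasma proteins, most of them made by hepatocytes, that marks and punctures microbes and damaged cells. In the alternative pathway, C3 attaches to a surface and binds factor B, the protease factor D cuts factor B, and properdin holds the resulting C3 convertase together. The convertase leads to cleavage of C5, and the fragment C5b then gathers C6, C7, C8 and many copies of C9 into a pore, the membrane attack complex. C8 is built from 3 chains with a gene each. Factor D is also known as adipsin and is made mainly by fat cells, properdin mainly by myeloid cells, and the other genes described here mainly by the liver.

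Between 18588 and 21119 probes per array carried the scanner software's mark for signal well above background, and no spot was saturated. Cd5l gave scaled signals of 11729 to 30443 on the AIM+/+ arrays and of 90.4 to 172 on the AIM-/- arrays, so the genotype labels held on all 8 arrays. Every AIM+/+ array lies on 1 slide and every AIM-/- array on another, so slide and genotype cannot be told apart. The 20-week arrays stood apart from the rest on the sex chromosomes: 3 Y-linked genes (Ddx3y, Eif2s3y, Kdm5d) were at background there and clearly measured on the 6 arrays of earlier times, and Xist was at 801 and 760 there. Xist was also well above background on the AIM-/- array at 6 weeks (154) and the AIM+/+ array at 12 weeks (66.7), where the Y-linked genes were present too. Hepatocyte markers were measured on every array, with Alb between 319028 and 435891. For each result below that rests on the 20-week arrays, values from the other arrays are given as well.

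Signals are printed as scaled signals, the scanner software's processed intensity brought to a common 75th percentile across arrays, and differences as log2 of their ratio. Levels of different probes are not set against each other, since probes bind with unequal strength. All 11 probes were well above background on 8 of 8 arrays. In bulk liver, fewer cells of a type and less RNA per cell cannot be told apart.

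The promoters of C6, C8a, C8b and C9 are shown because these 4 genes carried the lower signals of the fat-fed arrays described further on. Each sequence is the 250 bases before the gene's start, 5′ to 3′ on the gene's strand, from RefSeq's GRCm38.p6 annotation, and 9 of the 10 genes had such a window. They lie at chr15:4726960-4727209 (plus strand) for C6, chr4:104876399-104876648 (minus strand) for C8a, chr4:104766067-104766316 (plus strand) for C8b and chr15:6445096-6445345 (plus strand) for C9. Capitals mark letters that match, on either strand, 1 of the 6 short motifs searched. These were the HNF1 half-site GTTAAT, the C/EBP half-site core TTGCAA, the STAT site TTCNNNGAA, the core promoter box TATAAA, the nuclear receptor half-site AGGTCA and the NF-Y box CCAAT.
C6: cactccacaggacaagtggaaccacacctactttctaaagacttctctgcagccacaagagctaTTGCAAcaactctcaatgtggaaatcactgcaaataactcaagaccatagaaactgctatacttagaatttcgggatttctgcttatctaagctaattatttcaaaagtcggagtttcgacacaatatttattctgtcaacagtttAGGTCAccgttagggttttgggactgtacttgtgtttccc
C8a: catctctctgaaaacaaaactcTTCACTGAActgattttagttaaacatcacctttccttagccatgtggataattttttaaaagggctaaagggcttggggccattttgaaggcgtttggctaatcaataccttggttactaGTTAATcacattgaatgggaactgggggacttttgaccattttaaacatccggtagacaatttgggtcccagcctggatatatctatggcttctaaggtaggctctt
C8b: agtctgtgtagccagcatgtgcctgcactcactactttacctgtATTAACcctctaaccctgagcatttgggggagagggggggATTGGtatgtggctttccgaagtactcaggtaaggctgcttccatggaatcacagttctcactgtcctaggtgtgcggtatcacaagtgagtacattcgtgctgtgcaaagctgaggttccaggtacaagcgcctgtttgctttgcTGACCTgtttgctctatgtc
C9: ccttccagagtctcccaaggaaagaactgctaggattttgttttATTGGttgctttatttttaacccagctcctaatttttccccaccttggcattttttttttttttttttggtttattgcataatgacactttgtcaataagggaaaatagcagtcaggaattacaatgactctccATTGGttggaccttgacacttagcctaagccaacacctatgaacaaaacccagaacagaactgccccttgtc

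C6 held TTGCAA, found in 5.34% of 32851 promoters of the same length, and AGGTCA, found in 14.0%. C8a held GTTAAT (6.43% of promoters) and TTCACTGAA, a match to TTCNNNGAA (7.02%). C8b held GTTAAT and, with it, both CCAAT (in 33.8% of promoters) and the letters AGGTCA, each on its minus strand. C9 held CCAAT at 2 places. No motif was shared by all 4. Over the 9 genes with a window, GTTAAT was present in 4 (C8a, C8b, Hc and Cfp), AGGTCA in 3 (C3, C6 and C8b), CCAAT in 2 and TATAAA (12.4% of promoters) in Hc alone. A match is a description of letters and marks no binding site.

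The first comparison asked what a high-fat diet did to these genes, setting the 4 arrays of 6 and 12 weeks against the 2 chow arrays. Without overlap between fat-fed and chow arrays, 1 of 10 was higher (Cfd, the gene of factor D), against 13.7% of all genes, and 2 of 10 were lower (C8b and C3), against 13.2%. C6 was below both chow arrays on 3 of the 4 fat-fed arrays, all but the AIM+/+ array at 6 weeks. With limma and Benjamini-Hochberg adjustment over 15341 genes, 0 of the 10 genes passed at an adjusted p of 0.05, where 0.489% of all genes did. At an unadjusted p of 0.05, 4 of 10 passed (C3, Cfd, C6 and C8b), against 22.1% of all genes. The 2 genotypes stand in for replicates of a week here, so differences between 6 and 12 weeks do not enter the spread. The p-values rest on how the genotype difference varies across weeks, not on how animals scatter.

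Cfd, which encodes factor D, the protease that starts the alternative pathway convertase, moved over the widest range of the 10 genes. Its scaled signal was 148 on the AIM+/+ chow array and 65.6 on the AIM-/- chow array. At 6 weeks it was 16446 in AIM+/+ and 2323 in AIM-/-, and at 12 weeks 774 and 787. At 20 weeks it was 36.6 and 67.7. All 4 arrays of 6 and 12 weeks were above both chow arrays, both 6-week arrays were above both 12-week arrays, and the 20-week arrays lay within or below the chow level. The span from lowest to highest array was 449-fold, wider than in 99.9% of genes, whose median span was 1.75-fold.

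The difference in Cfd between 6 and 12 weeks and chow was 4.48 (log2, SE 0.77, 22.3-fold, 95% interval 2.51 to 6.45, limma adjusted p = 0.0751). It was higher than its own genotype's chow array on 4 of 4 arrays, by 6.80 and 5.15 at 6 weeks and by 2.39 and 3.58 at 12 weeks. Both genotypes were at least 2-fold above chow at 6 weeks in 1.20% of all genes and at 12 weeks in 5.48%, and Cfd was the only gene of the 10 that met either. Without the 20-week arrays in the fit, the difference was 4.48 with a limma adjusted p of 0.112. The adjusted p was 0.0455 with another background correction (normexp) and 0.0327 with a variance trend, and it reached 0.274 without the AIM-/- chow array. With the 20-week arrays counted as fat-fed, the difference was 2.66. From 6 and 12 to 20 weeks, the difference was -5.46 (SE 0.77, 95% interval -7.43 to -3.49, adjusted p = 0.106), with both 20-week arrays below the other 4.

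A second probe of the array, named NAP025923-1 in the array's files and not by any gene symbol, lies 176 bases from the Cfd probe on the same strand. The Cfd probe is at chr10:79295686-79295745 and this neighbour at chr10:79295284-79295509 (mm8, the build of the array files, plus strand). The neighbour's scaled signals on the same 8 arrays were 41.4 and 16.8 on chow, then 6152 and 933 (6 weeks), 295 and 331 (12 weeks), and 10.9 and 21.5 (20 weeks), AIM+/+ first in each pair. It was well above background on 5 of 8 arrays, and its correlation with Cfd was r = 0.999 over the 8 arrays, which both probes share. The large 6-week signal was therefore present in 2 probes of the locus. The diet difference of the neighbour, at 5.04 (SE 0.78, adjusted p = 0.0704), rests partly on a chow array at background.

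Fat cell markers were read on the same arrays. Adipoq, which encodes the fat cell hormone adiponectin, had scaled signals of 6.14 and 18.5 on the 6-week arrays and was well above background on 1 of 8 arrays. Lep, which encodes leptin, was well above background on none, and Retn, which encodes resistin, was at 14.8 on both 6-week arrays. Of the 10 adipocyte genes listed, 5 were measured, and 3 (AIM+/+) and 4 (AIM-/-) were well above background on the 6-week arrays. Lipe, which encodes hormone-sensitive lipase, was at 212 and 243 there, and Trarg1 was at 11.4 and 133. The list's median against chow was -0.27 in AIM+/+ and 0.67 in AIM-/- at 6 weeks. Fabp4, a fatty acid carrier that macrophages also make, was at 1107 and 2521 at 6 weeks and highest at 12 weeks (5243 and 8974). The summed signal of the list, most of it from Car3, a carbonic anhydrase that liver also makes, ran from 86198 to 111285 on chow and from 80648 to 99848 at 6 and 12 weeks. The part of fat cells in the Cfd signal was not tested.

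**Figure D1:**
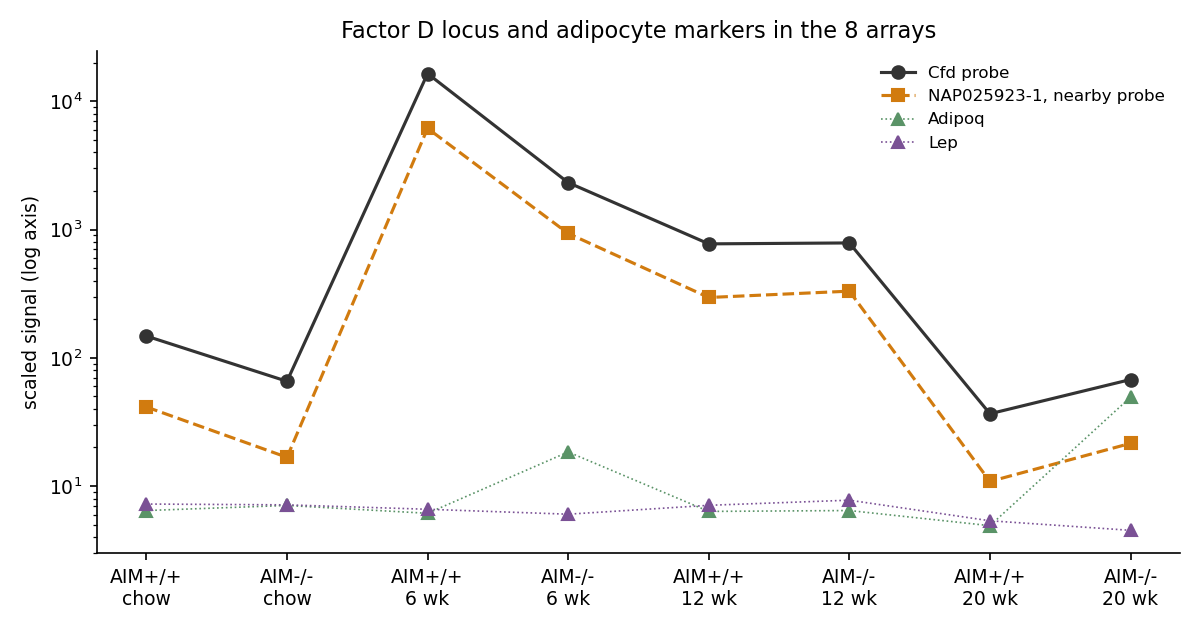
Scaled signal on a log axis for the Cfd probe, the nearby probe NAP025923-1, Adipoq and Lep on each of the 8 arrays, with 1 array per point and no error bars. Both probes of the Cfd locus peak at 6 weeks, at 16446 and 6152 on the AIM+/+ array, while Lep lies between 4.52 and 7.76 on all arrays.

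C3, the central protein on which all complement pathways meet, had 2 probes. The brighter one, printed in 10 spots per array with a coefficient of variation between 1.94% and 5.09%, gave 359688 and 363608 on chow in AIM+/+ and AIM-/-. It gave 341371 and 250594 at 6 weeks, 251857 and 265493 at 12 weeks, then 310572 and 308245 at 20 weeks. All 6 fat-fed arrays were below both chow arrays, by at most 0.54 against the chow array of the same genotype. The difference between 6 and 12 weeks and chow was -0.40 (SE 0.15, 1.32-fold lower, 95% interval -0.79 to -0.0025, adjusted p = 0.226). It was -0.21 with quantile normalization.

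The other C3 probe lies at chr17:56910450-56910607, against chr17:56889328-56889387 for the brighter one (mm8, minus strand). Its scaled signals were 805 and 953 on chow, 644 and 433 at 6 weeks, 405 and 400 at 12 weeks, then 729 and 743 at 20 weeks. The fat-fed arrays were again all below both chow arrays, and the 12-week pair was lowest. Its diet difference was -0.93 (SE 0.19, adjusted p = 0.0957), against -0.40 for the brighter probe, and the probes correlated at r = 0.927 over the 8 arrays.

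Cfb, which encodes factor B, the part of the convertase that factor D cuts, was the steadiest of the 10 genes. Its probe lies at chr17:34464613-34464969 (mm8, minus strand). Its scaled signals were 109059 and 97044 on chow, 110763 and 81061 at 6 weeks, 83789 and 93089 at 12 weeks, then 96220 and 97712 at 20 weeks. The groups overlapped, with a diet difference of -0.17 (SE 0.16, 95% interval -0.58 to 0.24, adjusted p = 0.568). Its span of 1.37-fold was wider than that of only 16.8% of genes.

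Cfp, the X-linked gene of properdin, was the other gene with a positive diet difference. Its probe lies at chrX:20082575-20082634 (mm8, minus strand). It gave 3210 and 3460 on chow, 5266 and 3289 at 6 weeks, 4553 and 5218 at 12 weeks, then 5467 and 4167 at 20 weeks. Of the 6 fat-fed arrays, 5 were above both chow arrays and the AIM-/- array at 6 weeks was between them. The diet difference was 0.43 (SE 0.22, 95% interval -0.13 to 1.004, adjusted p = 0.322), and it was 0.23 without the AIM+/+ chow array.

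**Figure D2:**
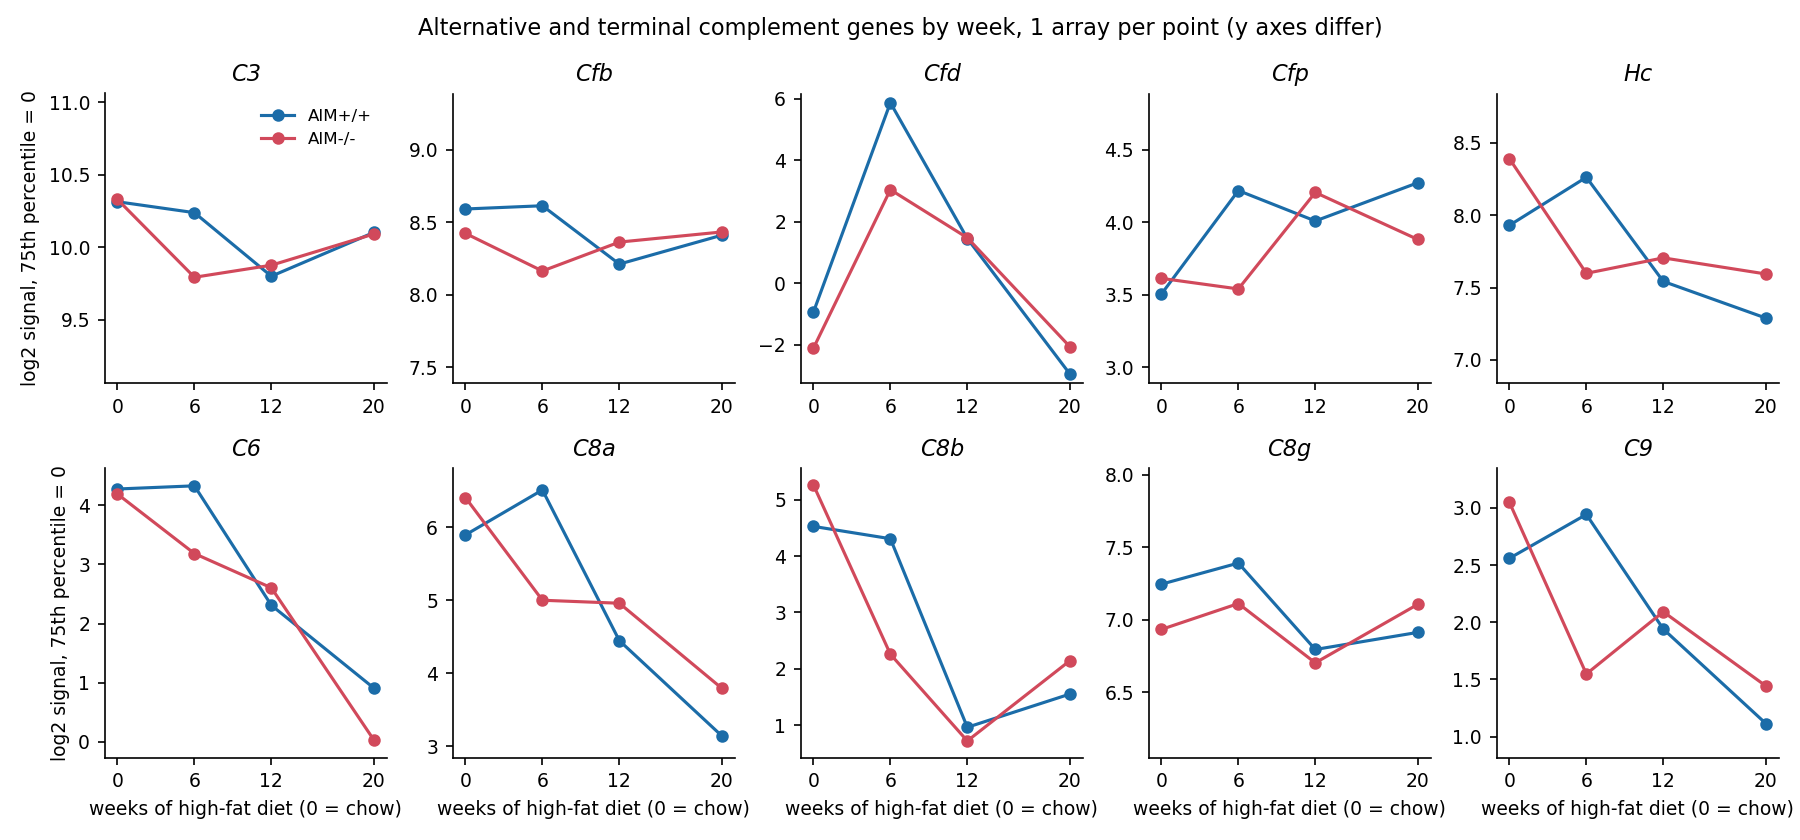
Scaled log2 signal, with each array's 75th percentile at 0, of the 10 genes against weeks of high-fat diet, 1 array per point, AIM+/+ in blue and AIM-/- in red, with a separate vertical axis for each gene. Cfd peaks at 6 weeks in both genotypes, C6, C8a and C9 end lowest at 20 weeks, and C8b is lowest at 12 weeks.

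In the terminal pathway, 4 of the 6 genes were much lower on the later arrays and the remaining pair, Hc and C8g, spanned 2.14-fold and 1.61-fold over the 8 arrays. Both genotypes were at least 2-fold below their chow array at 12 weeks for C6, C8a and C8b, which are 3 of the 10 genes, against 2.10% of all genes. At 20 weeks the same held for C6, C8a, C8b and C9, 4 of 10, against 1.77% of all genes. At 6 weeks it held for 0 of 10, against 0.724%. The 6 terminal genes had a median diet difference of -0.80, and the median of all genes was -0.02. Below 0 were 6 of 6, against 51.8% of all genes. C8g was only slightly so (-0.09) and was above 0 with quantile normalization (0.023).

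C8b encodes the C8 beta chain, which docks C8 onto the growing complex. Its scaled signals were 6516 and 10840 on chow, 5599 and 1353 at 6 weeks, 551 and 466 at 12 weeks, then 829 and 1250 at 20 weeks, AIM+/+ before AIM-/-. All 6 fat-fed arrays were below both chow arrays, and the AIM+/+ array at 6 weeks was only 0.22 below its own chow array. The diet difference was -2.83 (SE 0.61, 7.12-fold lower, 95% interval -4.41 to -1.26, adjusted p = 0.101, or 0.0490 with a variance trend). From 6 and 12 to 20 weeks C8b had a difference of -0.21 (SE 0.61, adjusted p = 0.899), with overlapping groups.

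C6 encodes the protein that binds C5b first, and its probe lies at chr15:4748363-4748422 (mm8, plus strand). It gave 5474 and 5159 on chow, 5681 and 2569 at 6 weeks, 1402 and 1720 at 12 weeks, then 531 and 289 at 20 weeks. Only the AIM+/+ array at 6 weeks reached the chow level. The diet difference was -1.13 (SE 0.33, 2.18-fold lower, 95% interval -1.98 to -0.27, adjusted p = 0.151). The later step was larger: both 20-week arrays were below all 4 arrays of 6 and 12 weeks, with a mean difference of -2.64 (SE 0.33, 6.22-fold, 95% interval -3.49 to -1.78, adjusted p = 0.0898, or 0.0411 with a variance trend). Against its own chow array, C6 was -3.37 in AIM+/+ and -4.16 in AIM-/- at 20 weeks.

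C8a encodes the C8 alpha chain, the first to enter the membrane. It gave 16847 and 24018 on chow, 25830 and 9050 at 6 weeks, 6165 and 8796 at 12 weeks, then 2490 and 3915 at 20 weeks. The AIM+/+ array at 6 weeks was the highest of the 8 and the 20-week pair was the lowest. The diet difference was -0.92 (SE 0.50, adjusted p = 0.343), and it was -0.40 without the AIM-/- array at 6 weeks and -1.44 without the AIM+/+ array at 6 weeks. From 6 and 12 to 20 weeks the difference was -1.76 (SE 0.50, 3.40-fold, 95% interval -3.05 to -0.48, adjusted p = 0.286).

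C9 encodes the protein that forms most of the pore, and its probe lies at chr15:6430342-6430401 (mm8, plus strand). Its scaled signals were 1666 and 2339 on chow, 2174 and 826 at 6 weeks, 1085 and 1205 at 12 weeks, then 612 and 768 at 20 weeks. Chow and 6-week arrays overlapped, and both 20-week arrays were the lowest. The diet difference was -0.67 (SE 0.42, adjusted p = 0.399), and that from 6 and 12 to 20 weeks was -0.85 (SE 0.42, 95% interval -1.94 to 0.24, adjusted p = 0.445). Leaving out the AIM-/- array at 6 weeks turned these into -0.24 and -1.28, and the diet difference was -1.07 without the AIM+/+ chow array and -0.28 without the AIM-/- one.

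Hc, the mouse gene of C5, has its probe at chr2:34805388-34805447 (mm8, minus strand). It gave 68890 and 94761 on chow, 86710 and 54755 at 6 weeks, 52678 and 58961 at 12 weeks, then 44208 and 54584 at 20 weeks. Of the fat-fed arrays only the AIM+/+ array at 6 weeks was above the lower chow array. Its diet difference was -0.38 (SE 0.26, adjusted p = 0.424), and it was -0.12 without the AIM-/- chow array and -0.65 without the AIM+/+ one. C8g, the gene of the C8 gamma chain, a lipocalin that is not needed for the pore to form, has its probe at chr2:25320929-25321058 (mm8, minus strand). It gave 42894 and 34547 on chow, 47452 and 39098 at 6 weeks, 31383 and 29439 at 12 weeks, then 34061 and 38958 at 20 weeks. Its 12-week pair was lowest, and its diet difference was -0.09 (SE 0.15, 95% interval -0.48 to 0.30, adjusted p = 0.753). The other C8 chains spanned wider ranges, 10.4-fold for C8a and 23.3-fold for C8b.

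The step from 6 and 12 to 20 weeks passed for 0 of 10 genes, where 0.156% of all genes passed. At an unadjusted p of 0.05, 3 of 10 passed (Cfd, C6 and C8a), against 13.3% of all genes. The 20-week pair was below all arrays of 6 and 12 weeks in 4 of 10 genes (Cfd, C6, C8a and C9), against 14.8% of all genes. Age, time on the diet and the sex-chromosome signal all change with the 20-week arrays and cannot be told apart. On the 6 remaining arrays alone, C6, C8a and C8b were lower at 12 weeks than on chow in both genotypes. The differences were -1.97 and -1.58 for C6, -1.45 and -1.45 for C8a, and -3.56 and -4.54 for C8b, AIM+/+ first.

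**Figure D3:**
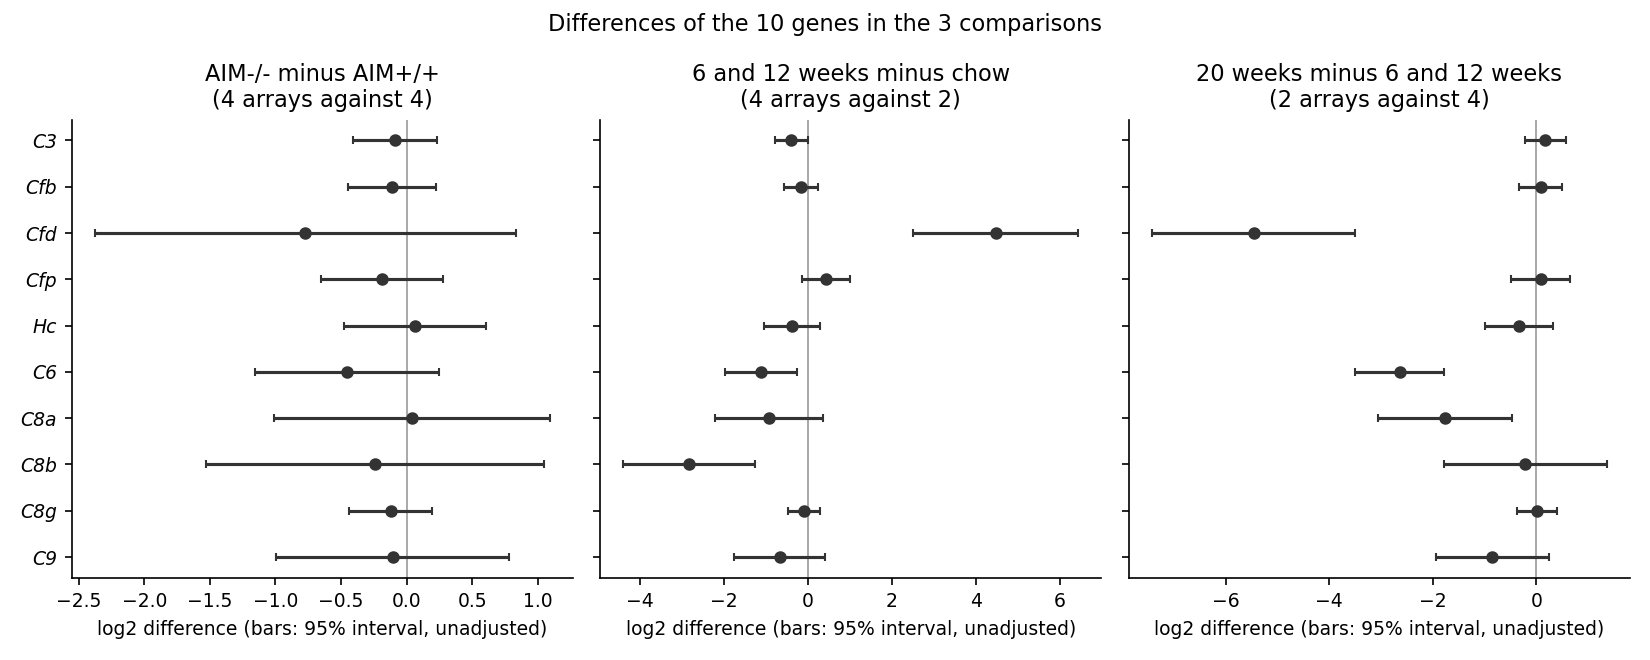
Log2 differences of the 10 genes in the 3 comparisons, with bars for the unadjusted 95% interval of the limma fit, for AIM-/- minus AIM+/+, 6 and 12 weeks minus chow, and 20 weeks minus 6 and 12 weeks. The horizontal scales differ between panels. Every interval of the genotype panel crosses 0, and the intervals of Cfd and C6 lie off 0 in both others.

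Sex-biased liver genes were read on the same arrays, and 0 of 12 male-biased genes passed on the diet. Against the chow array of the same genotype, the median of 12 male-biased liver genes was 0.07 in AIM+/+ and -0.99 in AIM-/- at 6 weeks, -1.80 and -1.92 at 12 weeks, then -2.30 and -3.20 at 20 weeks. The median of the 6 terminal complement genes on those arrays was 0.24 and -1.21, -1.03 and -1.20, and -2.10 and -2.11. Both medians were above 0 only on the AIM+/+ array at 6 weeks. Hsd3b5, a steroid enzyme of male liver, was at 16659 and 7416 on chow, 12068 and 144 at 6 weeks, and between 7.86 and 25.5 on the other 4 arrays. Cyp2b9, a cytochrome of female liver, was at 714 and 492 on chow, 71.8 and 10582 at 6 weeks, and between 14911 and 38516 on the other 4. Other members of both lists moved the opposite way on the AIM-/- array at 6 weeks, against AIM-/- chow. Female-biased Cyp3a41a was at 53405 against 147379 on chow, and Cyp2a4 at 25547 against 56425. Male-biased Elovl3 was at 10717 against 6763, and Cyp2d9 at 142249 against 114780.

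The 13 female-biased genes had medians from -0.24 to 0.18 at 6 and 12 weeks and of 3.95 and 3.64 at 20 weeks. Among these, A1bg, Cux2, Prom1 and Sult3a1 were well above background on both 20-week arrays and on no other, and so entered the fit only through them. Hao2 was well above background on 4 of 8 arrays, those of 12 and 20 weeks. Cyp3a16 had a diet difference of -1.79 (limma adjusted p = 0.0451), but over all genes the diet comparison had 0 calls when any 1 array was left out. Of the 12 male-biased genes, Slco1a1, a steroid transporter, fell at 20 weeks (adjusted p = 0.0348) and was not well above background there. The 12 hepatocyte genes had medians between -0.33 and 0.02. These medians hide a spread: in the diet comparison 11 of the 12 were below 0 and 1 was above. The lowest were Cps1 at -1.57 (SE 0.28, limma adjusted p = 0.0774) and Tat at -0.90 (SE 0.29, limma adjusted p = 0.170), and the list's median was -0.18. The part of sex-biased expression in the lower C6, C8a, C8b and C9 signals was not tested.

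**Figure D4:**
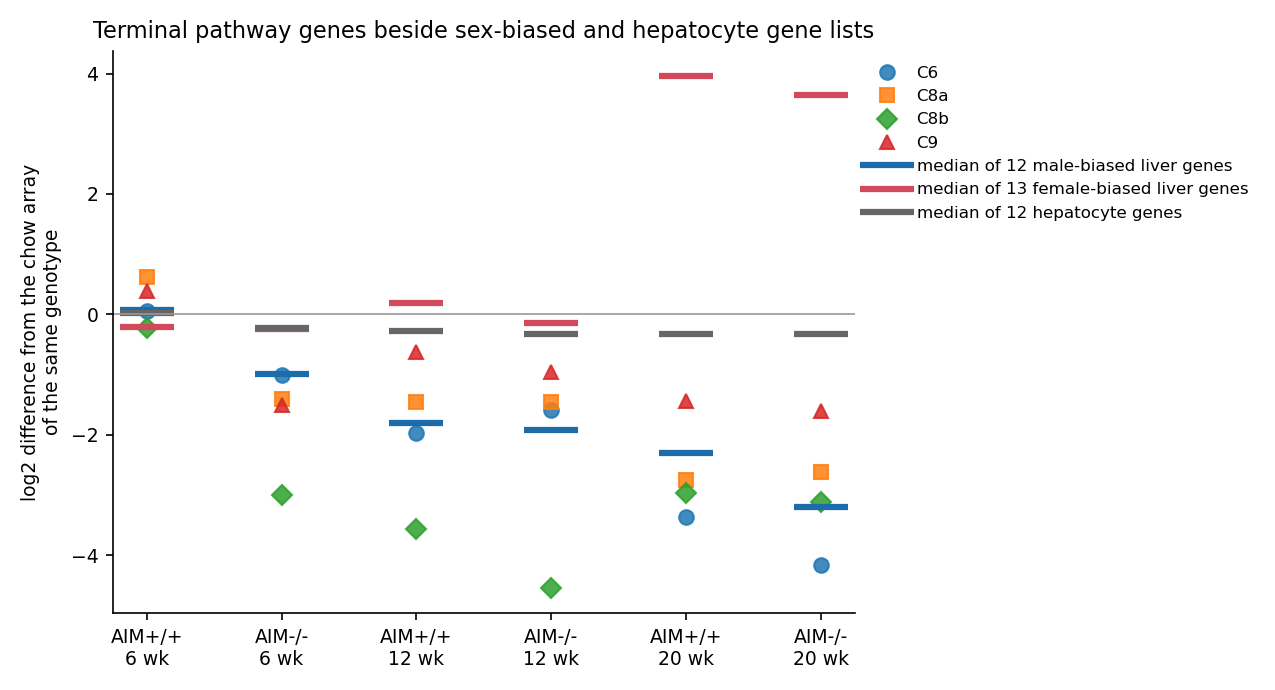
Log2 difference from the chow array of the same genotype for C6, C8a, C8b and C9 (points, 1 array each) and for the medians of 12 male-biased, 13 female-biased and 12 hepatocyte genes (bars) on the 6 fat-fed arrays. The 4 genes lie between -0.22 and 0.62 on the AIM+/+ array at 6 weeks and, like the male-biased median, below 0 on the other 5 arrays, while the hepatocyte median stays between -0.33 and 0.02.

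The second comparison asked whether the knockout of AIM alters these genes. Over the 4 weeks the genotype difference (AIM-/- minus AIM+/+) passed for 0 of 10 genes, where 0.0326% of all genes passed. At an unadjusted p of 0.05 it passed for 0 of 10, against 5.59% of all genes. The differences ran from -0.77 for Cfd (SE 0.63, 95% interval -2.38 to 0.84) to 0.07 for Hc (SE 0.21, 95% interval -0.48 to 0.61), with a limma adjusted p of 0.9996 for each gene, and the genotypes overlapped in all 10. Over all genes, 0.652% were higher and 1.62% lower in AIM-/- without overlap. C6 had -0.45 (SE 0.27, 95% interval -1.15 to 0.25), with AIM-/- lower at 0, 6 and 20 weeks and higher at 12. Intervals this wide allow differences of 2-fold for Cfd, C6, C8a and C8b.

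Among the 10 genes, the genotypes were farthest apart at 6 weeks. All 10 were lower in AIM-/- there, and 55.8% of all genes were. At least 2-fold lower were 5 of the 10, against 3.76% of all genes: Cfd at -2.82, C8b at -2.05, C8a at -1.51, C9 at -1.40 and C6 at -1.15. The remaining 5, led by Cfp at -0.68 and Hc at -0.66, lay within the middle 90% of all genes, which ran from -0.87 to 0.77. These are differences between 1 array and 1 array and have no test.

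On chow only Cfd was at least 2-fold lower in AIM-/- (148 against 65.6, -1.17, or -0.71 with normexp), where 4.69% of all genes were, and C8b was higher by 0.73. At 12 weeks the 10 differences lay between -0.24 (C8b) and 0.51 (C8a), and 0 of 10 were at least 2-fold lower, against 2.17% of all genes. At 20 weeks they lay between -0.88 (C6) and 0.89 (Cfd), and 0 of 10 were at least 2-fold lower, against 2.23%. The middle 90% of all genes ran from -0.64 to 0.53 at 20 weeks, and 4 of 10 lay outside it, C6 below and Cfd, C8a (0.65) and C8b (0.59) above. Without both 6-week arrays, 4 genotype differences changed sign, from -0.24 to 0.36 for C8b, from -0.11 to 0.32 for C9, from -0.09 to 0.027 for C3 and from -0.11 to 0.0019 for Cfb. That of Cfd went from -0.77 to -0.09. The male-biased median against chow was -0.99 on that AIM-/- array and 0.07 on its AIM+/+ partner, and Xist was at 154 and 13.3. Their part in these differences was not tested.

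**Figure D5:**
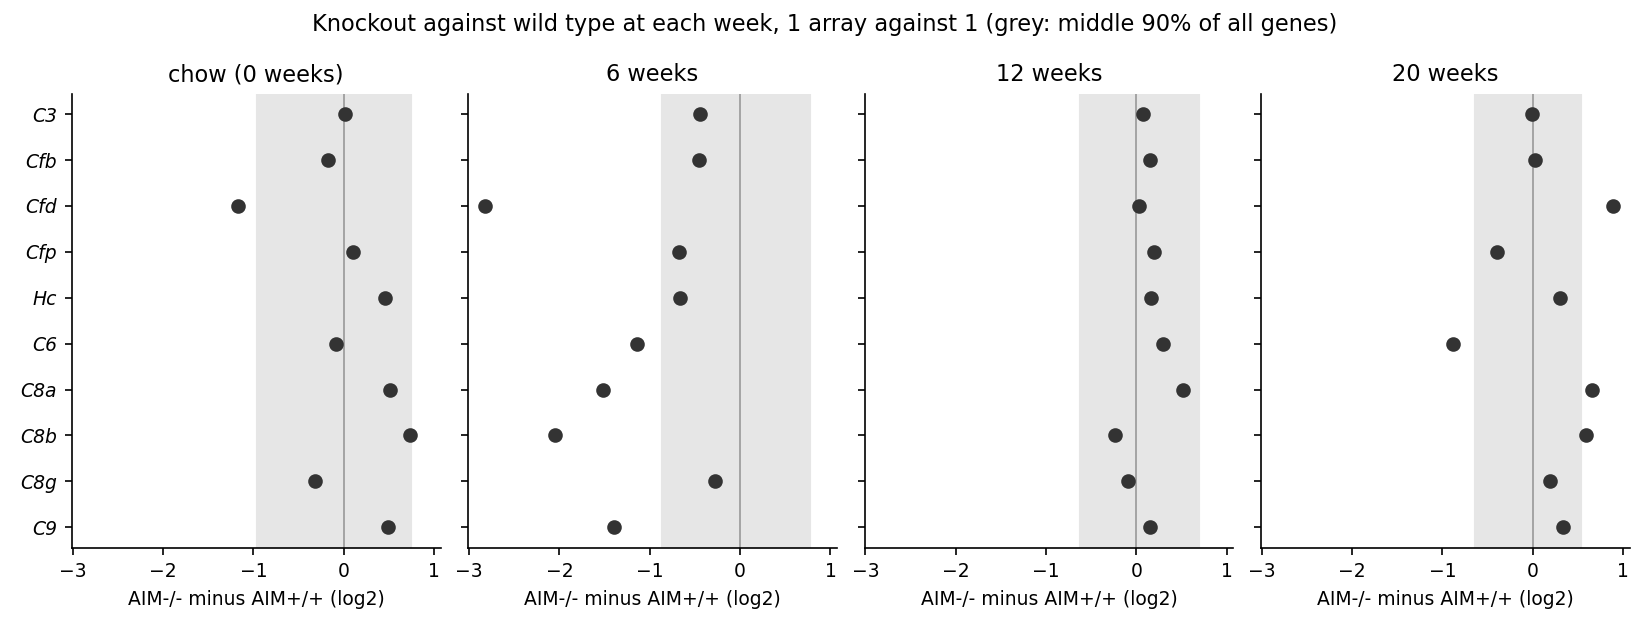
AIM-/- minus AIM+/+ (log2) for the 10 genes at 0, 6, 12 and 20 weeks, 1 array against 1, with the middle 90% of all genes in grey. At 6 weeks all 10 points are below 0 and 5 lie left of the grey band, with Cfd at -2.82, and at 12 weeks all lie inside it.

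The interaction asked whether the knockout's difference on the diet departs from that on chow. It passed for 0 of 10 genes by limma, where 0% of all genes passed (0 of 15340). At an unadjusted p of 0.05, 679 genes passed, 4.43% of all. The interaction ran from -1.30 for C8b (SE 1.89, 95% interval -5.94 to 3.34) to 0.53 for Cfd (SE 4.86), and no unadjusted p was under 0.05 for any of the 10. The arrays of 6, 12 and 20 weeks are pooled in that fit, so the swing of Cfd across weeks widens its interval.

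Over the 8 arrays C8g correlated with the other 5 terminal genes at r from 0.32 to 0.65. Hc and C9 correlated at r = 0.96, C8a and C9 at 0.95, C6 and C8a at 0.93, and Hc and C8a at 0.93, while C6 and C9 stood at 0.85 and Hc and C6 at 0.78. Hc and C8b correlated at 0.85. C8a and C8b, whose probes lie 11.42 kb apart on opposite strands of chromosome 4 (chr4:104313806-104313865 and chr4:104302326-104302385, mm8), correlated at 0.78. C3 correlated at 0.87 with Cfb and at 0.85 with C8b, and Cfp ran opposite to C8b at -0.51. These correlations rest on 8 arrays that share diet weeks, and many other genes correlate as strongly. Out of all genes tested, the nearest to each of the 10 reached r of 0.966 or more for 9 and 0.962 for Cfp. For Cfd the nearest is NAP025923-1, the neighbouring probe of its own locus, and the next, Copb2, reached 0.981.

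Those nearest genes were NAP025923-1 for Cfd (0.999), Mbl1, which encodes a mannose-binding lectin of the lectin pathway, for C8g (0.993), 2310001H17Rik for C8b (0.992), Mtx1 for Hc (0.992) and Rpl11 for C9 (0.992). Klhl2 was nearest to C8a (0.989), Wdr48 to C6 (0.982), AK147274 to C3 (0.979) and Rprd1a to Cfb (0.966). For Cfp it was Fpr1, which encodes a formyl peptide receptor of phagocytes (0.962), followed by C1qa, a macrophage-made chain of C1q (0.962).

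The medians of the other complement lists lay near 0. Of 17 other components of the classical and lectin pathways, 15 were measured, with a median diet difference of 0.13 (8 above 0 and 7 below), a median of 0.10 from 6 and 12 to 20 weeks, and 0 passing in either direction. Of 23 complement regulators and receptors, 18 were measured, with medians of -0.07 and 0.01 and 0 passing. Among 24 acute phase genes, 2 rose on the diet, Lcn2, which encodes an iron-scavenging lipocalin, by 3.66 (SE 0.27, adjusted p = 0.0298), and Orm3, an orosomucoid, by 2.64 (SE 0.21, adjusted p = 0.0330), while the list's median was 0.01. Over all genes 0.359% were higher on the diet by the same test, and 0 were called in either direction when any 1 array was left out. The 15 genes of transcription factors and receptors known to govern liver complement or sex-biased genes had medians of 0.01 and 0.13, with 0 passing. Whether the terminal genes differ from these lists was not tested.

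Markers of the cells that make factor D and properdin were read on the same arrays. The macrophage list had a median diet difference of 0.27 (8 of 10 above 0). Its one call by genotype was Cd5l itself, which fell by 7.35 on the log2 scale in AIM-/- (limma adjusted p = 0.000332), with 0 of the other 9 passing. The list's median genotype difference was -0.39, with 9 of 10 below 0 and 1 above. Cd163 (-1.20) and Marco (-1.06) were the lowest after Cd5l. The 5 measured neutrophil genes, of 12 listed, had a median of 0.37 on the diet, and Ngp was well above background on 0 of 8 arrays. That median is the value of Retnlg, which was not well above background on chow or at 6 weeks. Ltf and Mpo were well above background on the 20-week arrays only. S100a8 (0.30) and S100a9 (0.75) were so on all 8 arrays. Of 6 monocyte genes 3 were measured, with a median of 0.56, and the 5 measured adipocyte genes had 0.37. Of these 4 lists, the calls in the 3 comparisons came to Cd5l alone. The part of these cells in the Cfp signal was not tested.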

How the data were processed

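Liver RNA of 8 mouse groups was hybridised to 8 one-colour Agilent arrays. Spot intensities were processed by the authors in Agilent Feature Extraction (9.5 in the submitters' processing notes; 9.5.3.1, protocol GE1-v5_95_Feb07 and design 014868, per the file headers). The authors' deposited value table holds log2 values and served as an alternative, as did normexp on the deposited raw mean and background intensity.

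The 1639 control spots and 75 to 130 outlier spots per array were left out, and spots of a probe were averaged. The main values are log2 processed signal minus each array's 75th percentile. Probes well above background on at least 2 of 8 arrays were kept (21385 of 41174), and the brightest stood for a gene. Names came from RefSeq's GRCm38 annotation by accession (24375 probes matched). limma 3.58.1 (R 4.3.3, with version 1.17.8 of data.table) fitted week and genotype with 3 residual degrees of freedom, and genotype by diet with 4 for the interaction, with Benjamini-Hochberg adjusted p under 0.05 as threshold. The fits were tested on simulated data. Single weeks, 1 array against 1, have no test.

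The genes and lists were chosen with earlier results of these data known. All 10 genes were named; from other lists, those past the threshold, at most 4 per list and comparison, the sex-chromosome genes and a few defining markers. Hsd3b5, Cyp2b9, Cyp3a41a, Cyp2a4, Elovl3, Cyp2d9, Cps1, Tat, Cd163, Marco, Fabp4, Car3, C1qa, NAP025923-1 and the neighbouring genes were chosen after their values were seen. So were Ltf, Mpo, Retnlg and Copb2.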

Additional observations from a re-analysis of the deposited data

How the results depend on the processing

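No paired analysis was possible because every group has 1 array, numbered 1. The slide could not be fitted as a block apart from genotype, and the diet and 20-week comparisons already hold it through the genotype term. Across the other alternatives the direction of Cfd, C6, C8a, C8b and C9 in the diet and 20-week comparisons held under every change of background correction, scaling, filter, probe rule and variance prior. Directions turned for differences near 0: with normexp, genotype Cfb was 0.026, and with quantile normalization, genotype C3 was 0.082 and diet C8g 0.023. The Cfd interaction, 0.53 with an SE of 4.86 in the main fit, also turned and was -0.11 with normexp. The cause was not tested.

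The diet count over all genes, 75, was 386 with normexp, 0 without a filter on dim probes, 572 with a variance trend, 358 with the 20-week arrays among the fat-fed ones and 0 without them in the fit. The 20-week count, 24, was 55, 7 and 42 under the first 3 of these, and the interaction count, 0, was 111 without the filter. Genes at least 2-fold apart at 0, 6, 12 and 20 weeks, 1112, 1007, 699 and 638, were 400, 352, 216 and 205 with normexp and 550, 489, 287 and 314 where both arrays had to be well above background. The cause was not tested.

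Leaving out 1 array at a time gave 0 diet calls each time, 3 to 19 for 20 weeks and 0 to 3 for the interaction, and leaving out 1 week gave 1 genotype call each time. The ranges of differences that turned were -0.22 to 0.037 for C8g (diet), -0.029 to 0.20 for Cfb, -0.079 to 0.25 for Cfp, -0.82 to 0.39 for C8b, -0.20 to 0.22 for C8g (20 weeks), -0.15 to 0.027 for C3, -0.20 to 0.0019 for Cfb, -0.065 to 0.31 for Hc, -0.16 to 0.56 for C8a, -0.57 to 0.36 for C8b, -0.31 to 0.32 for C9 (genotype) and -0.024 to 0.18 for Cfb, -1.67 to 2.74 for Cfd, -1.29 to 0.46 for C6, -1.41 to 0.28 for C8a (interaction). A fit with 1 array fewer assumes that the lone array of a week varies like the others. With 1 array per group the number of arrays limits the precision. These genes were all well above background on 8 arrays, but Cfd was dim on the chow and 20-week arrays (36.6 to 148). Its genotype difference at 20 weeks, 0.89, ran from 0.32 to 0.94 over normexp and quantile normalization. The other C3 probe was an alternative chosen after seeing the data.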

Other observations

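Probes near the 10 genes on the genome gave further values, described with no test over the 8 arrays, which all of these probes share. Lcn12, a lipocalin gene like C8g, has a probe 6871 bases from that of C8g on the same strand of chromosome 2 and correlated with it at r = 0.96. C2, the classical pathway counterpart of factor B, has 2 probes 5716 and 6267 bases from that of Cfb, each at r = 0.62. Nelfe, 1792 bases from the Cfb probe on the other strand, was at r = 0.20. Med16, a Mediator subunit, has 2 probes 2501 and 2583 bases from that of Cfd on the other strand, at r = 0.86 and 0.88. Fbxw5, on the other strand 5793 bases from C8g, was at r = 0.26.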
